A study of Lactuca sativa with 53 samples.

Results

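The genes described here are the 100 lettuce genes whose transcripts stood highest after 4 h at 4 °C, in both PI284702 and UC96US23, relative to the unstressed plants and to the later times in the cold. They were ranked from the deposited cold table, in which a value is in CPM, the reads of a gene scaled to a library sum of 1000000. For each cultivar, the mean of log2(CPM + 0.5) at 0 h was subtracted from that at 4 h, 24 h and 7 d, and the score was the 4 h difference less the largest of the 24 h difference, the 7 d difference and 0. Genes were ordered by the lower score of the 2 cultivars, and the AP2/ERF genes of the study's family list were left out. Of 23933 genes in the table, 23790 were ranked and the first 100 were taken as members. The cold values chose the members, so those values are given as a description and without a test.

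Cold is sensed by plants within minutes, and the first wave of transcripts that follows includes regulators such as the CBF genes, which belong to the AP2/ERF family. CBF proteins bind the CRT/DRE element in the promoters of cold-regulated genes, and many of those targets build up later and stay high while the cold lasts. Early transcripts of the response are often transient, and many of the genes that respond fast to cold in Arabidopsis also respond to wounding, salt or drought. In Arabidopsis the early cold response is also gated by the circadian clock. No member could be matched to a named gene, so members are given by their identifier, in which the first number after "gn" is the linkage group, and no function is assigned to any of them.

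By the study's methods, stress was given to plants 18 d old, which had been raised at 20 °C with light for 16 h a day. The age at harvest is not given for each time, so time under stress and plant age cannot be told apart. PI284702 and UC96US23 were sampled warm-grown (0 h) or after 4 h, 24 h or 7 d at 4 °C, in 3 libraries a group apart from PI284702 at 0 h with 2, which makes 23 libraries. Salinas was sampled in 30 libraries, 3 for each of a 0 h control and of 5 h, 24 h and 48 h of heat at 34 °C, of drought with water withheld and of salt as 250 mM NaCl. The labels name the tissue as aerial tissue and the treatment text as leaf. Each genotype was 1 cultivar, and the labels do not say whether the cold libraries came from separate plants. Every stress was given under dimmer light than growth, by the same methods, and the cold under the dimmest. Each table has only a 0 h group as its unstressed reference. Temperature and light therefore cannot be told apart in the cold, nor can the hour of sampling at 4 h. In Salinas, stress and light cannot be told apart in any comparison with control. The hour of sampling is a further difference where a 5 h Salinas group is compared with the control or with 24 h, and cannot be told apart there.

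Between 17570370 and 27896716 reads were counted per cold library (median 20158172), so that 1 read was worth 0.0358 to 0.0569 CPM. The Salinas libraries held between 19144717 and 29521313 reads (median 23710564). Some libraries stood apart from the others of their group. Among the cold libraries this was clearest for the members in PI284702 at 24 h, where replicate 1 was the highest of the 3 for 85 of the 100 members and for 35.7% of all genes. The median member stood 0.74 above 0 h on the log2 scale in replicate 1, 0.21 in replicate 2 and 0.12 in replicate 3. The median difference from 0 h at 24 h and the numbers of members still high or back at 0 h are given with and without it. In addition, replicate 1 of PI284702 at 4 h was the lowest of its group for 64 members (34.4% of all genes) and replicate 3 of UC96US23 at 0 h the highest for 64 (31.2%), and 92 and 96 members stayed on the list without the one or the other. Over all genes, the widest gap between replicates was that of replicates 1 and 2 of Salinas at 24 h of salt (chi-square per gene 72.4), and 46 to 50 members rose in that group when any 1 library was left out. Among the cold libraries, replicate 2 of UC96US23 at 4 h stood farthest from its group over all genes (24.1 and 28.9). It was the lowest there for 33 members (48.4% of all genes) and the highest for 48 (30.8%).

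At 4 h the median member stood 1.87 above 0 h on the log2 scale in PI284702 (range 0.99 to 5.34) and 1.59 in UC96US23 (0.99 to 4.27). At 24 h the median difference from 0 h was 0.35 in PI284702, or 0.19 without replicate 1, and 0.05 in UC96US23. At 7 d it was -0.13 and -0.22. In levels, the median of the group means went from 3.77 CPM at 0 h to 16.1, 5.61 and 3.83 CPM at 4 h, 24 h and 7 d in PI284702, and from 4.70 CPM to 18.7, 5.08 and 4.13 CPM in UC96US23. Members covered a wide range of abundance. At 4 h, 18 had a mean of at least 50 CPM in both cultivars, 9 had at least 100 CPM in both and 10 were under 5 CPM in both.

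**Figure D1:**
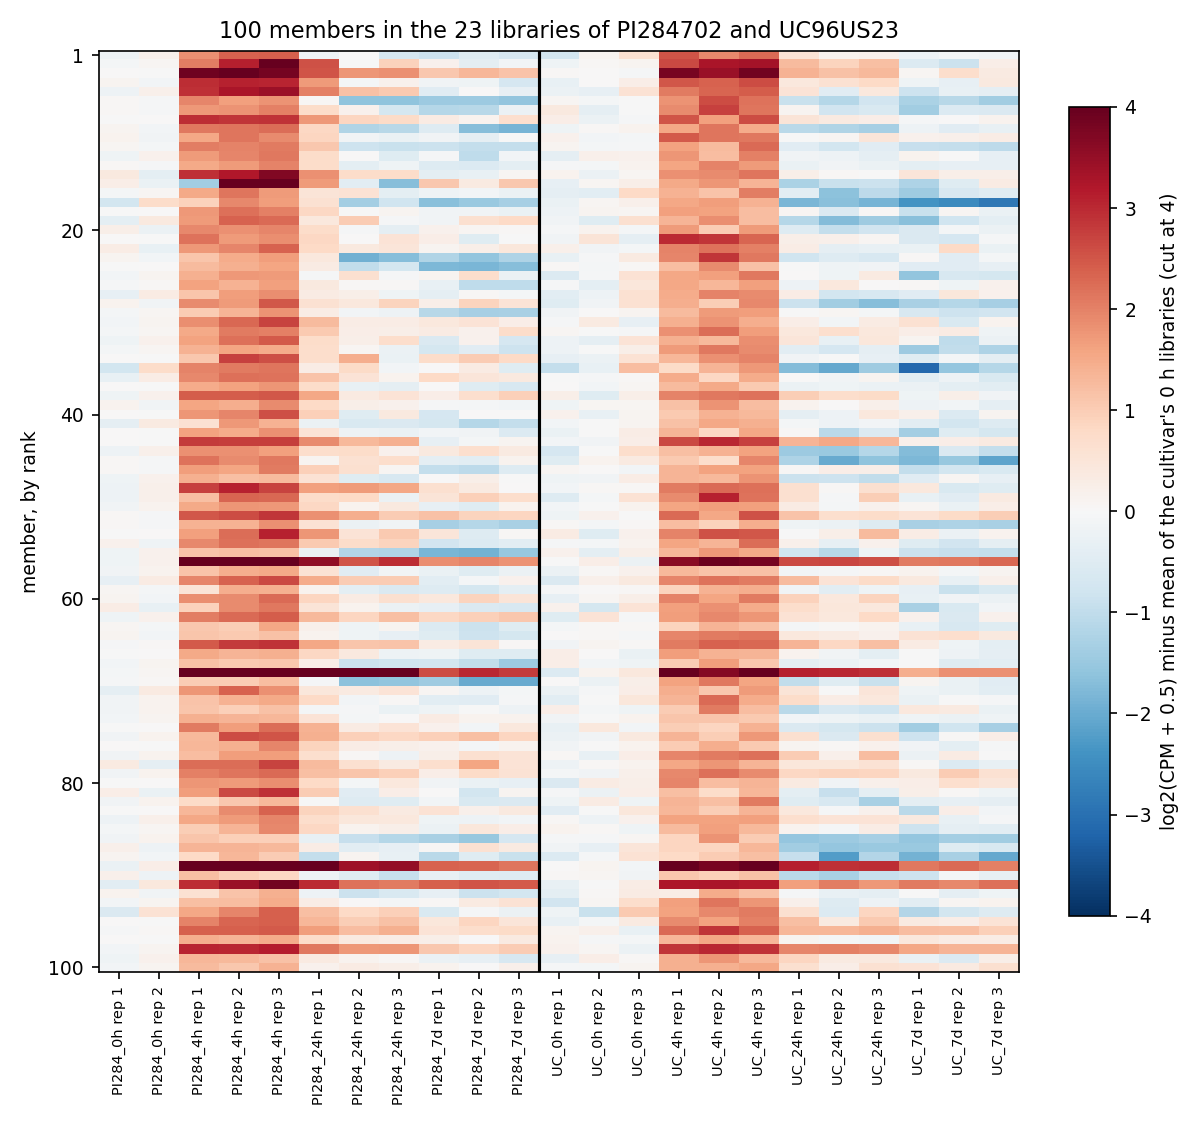
Heat map of the 100 members (rows, rank 1 at the top) in the 23 libraries of PI284702 and UC96US23 (columns, by time at 4 °C), coloured by log2(CPM + 0.5) minus the mean of the cultivar's 0 h libraries. The 4 h columns are red in both cultivars, and replicate 1 of PI284702 at 24 h is redder than its 2 neighbours.

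Every 4 h library was above every other library of the cultivar for 94 of 100 members in PI284702, where 6.60% of all genes had this order, and for 98 in UC96US23, where 6.43% had it. This order follows from how the members were chosen. The 6 exceptions in PI284702 include Lsat_1_v5_gn_2_42860.1, which had 0.42, 98.4 and 38.8 CPM in its 3 libraries at 4 h. Its first library at 4 h was thus below both 0 h libraries, at 2.38 and 1.49 CPM.

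The lower of the 2 scores ran from 1.94 at rank 1 to 0.95 at rank 100, and 89 members had a score of at least 1. The median score was 1.21 for the members and -0.46 for all ranked genes, and 2708 ranked genes had a score above 0. The limit of the list cuts through a continuous ranking. Just inside it, Lsat_1_v5_gn_2_66601.2 at rank 99 and Lsat_1_v5_gn_6_43360.1 at rank 100 scored 0.96 and 0.95. Just outside, the next genes in the ranking, Lsat_1_v5_gn_8_115821.1 and Lsat_1_v5_gn_9_13500.1, scored 0.94 and 0.93.

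The gene of rank 1, Lsat_1_v5_gn_8_49880.2, had 1.17 and 1.75 CPM at 0 h in PI284702, 6.32, 9.35 and 9.56 CPM at 4 h, 1.18, 1.44 and 0.71 CPM at 24 h and 0.58, 0.87 and 0.72 CPM at 7 d. In UC96US23 it had 0.35, 1.04 and 1.68 CPM at 0 h, 7.66, 4.85 and 6.32 CPM at 4 h, 1.60, 1.06 and 1.12 CPM at 24 h and 0.72, 0.84 and 0.79 CPM at 7 d. All 6 libraries at 4 h were above all others of their cultivar, and the later times overlapped with 0 h apart from 7 d in PI284702, which lay below it.

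The most abundant member at 4 h in PI284702 was Lsat_1_v5_gn_5_126341.1 at rank 3. Its level there was 20.9 and 20.2 CPM at 0 h, 311, 340 and 301 CPM at 4 h, 119, 71.0 and 74.2 CPM at 24 h and 44.2, 52.2 and 46.2 CPM at 7 d. In UC96US23 it was 18.6, 18.3 and 17.7 CPM at 0 h, 259, 206 and 272 CPM at 4 h, 48.6, 41.9 and 45.3 CPM at 24 h and 19.3, 30.1 and 23.6 CPM at 7 d. The gene was 15.1-fold and 13.1-fold above 0 h at 4 h and, unlike rank 1, was still above all 0 h libraries at 24 h in both cultivars.

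Another course was that of Lsat_1_v5_gn_5_30860.1 at rank 6, which stood below its starting level after the peak. In UC96US23 it had 30.2, 26.9 and 28.1 CPM at 0 h, 99.3, 177 and 131 CPM at 4 h, 14.9, 12.5 and 16.4 CPM at 24 h and 11.6, 12.9 and 10.4 CPM at 7 d. In PI284702 it had 34.3 and 31.5 CPM at 0 h, 128, 103 and 116 CPM at 4 h and 11.7, 11.7 and 10.7 CPM at 7 d. At 24 h its PI284702 libraries split, with 34.1 CPM in replicate 1 against 10.4 and 10.5 CPM in the others.

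Other members near the top of the ranking repeated one of these courses. Lsat_1_v5_gn_4_165741.1 at rank 4 had 0.91 and 0.73 CPM at 0 h in PI284702 and 9.73, 10.6 and 10.4 CPM at 4 h, against 1.35, 1.80 and 2.21 CPM and 12.3, 11 and 13.3 CPM in UC96US23. Lsat_1_v5_gn_3_20400.1 at rank 8 had 24.1 and 24.9 CPM at 0 h in PI284702 and 192, 179 and 184 CPM at 4 h, and in UC96US23 23.4, 16.1 and 18.8 CPM against 112, 60.5 and 120 CPM. In both genes all 4 h libraries were above all libraries of the other times. Lsat_1_v5_gn_5_143260.1 at rank 2 was more scattered, with 3.64, 8.13 and 16.6 CPM at 4 h in PI284702 and 5.39, 0.50 and 1.42 CPM at 24 h, so that 1 library at 24 h lay inside the range of 4 h.

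**Figure D2:**
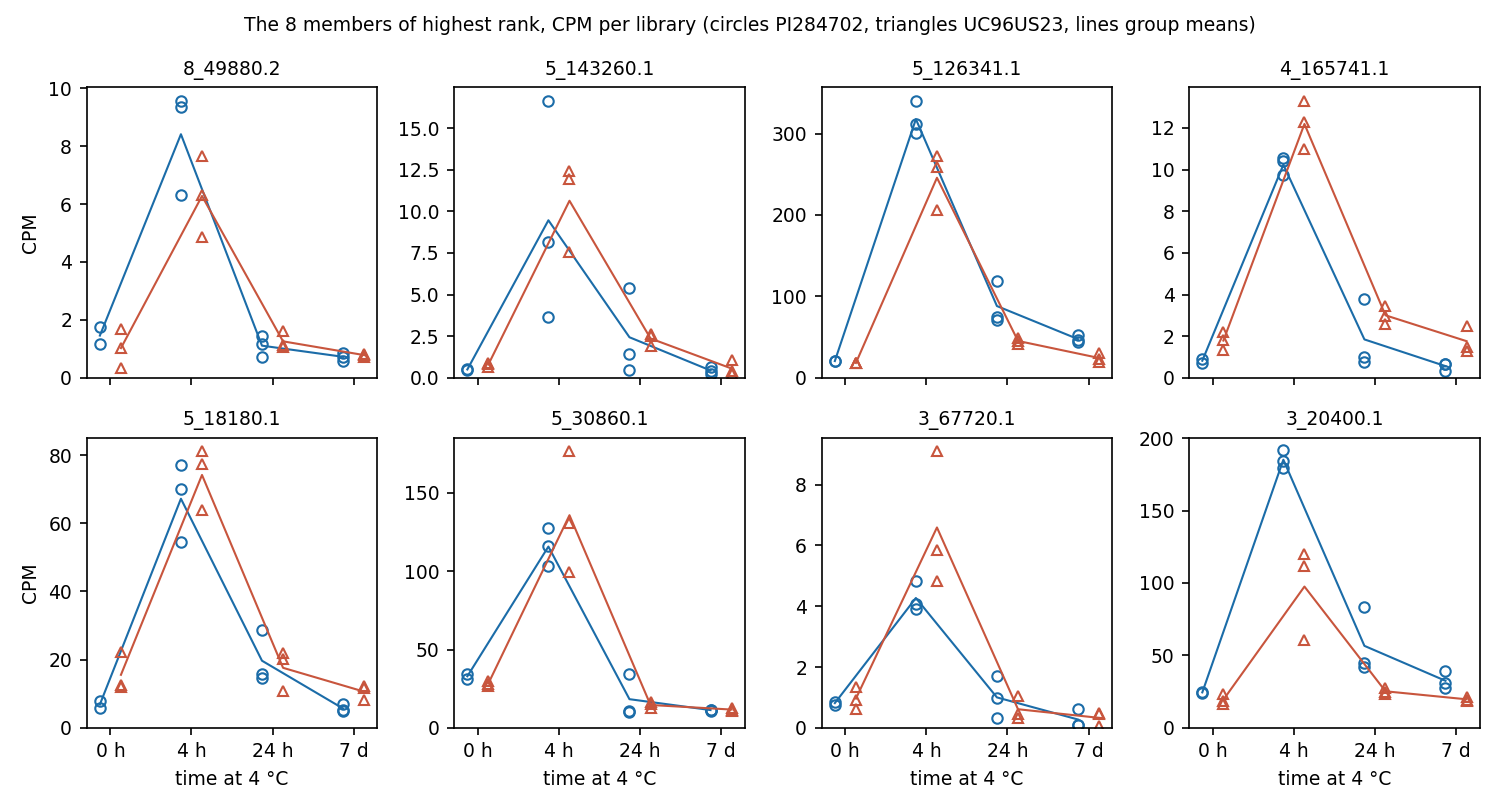
CPM per library of the 8 members of highest rank against time at 4 °C, with circles for PI284702, triangles for UC96US23 and lines through the group means. Each gene is highest at 4 h, and Lsat_1_v5_gn_5_126341.1 reaches 340 CPM in PI284702 and 272 CPM in UC96US23.

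What happened after the peak separated the members. At 24 h, 10 members were still at least 1 above 0 h on the log2 scale in both cultivars, 21 were at or below 0 h in both, and 69 lay between. Without replicate 1 of PI284702 at 24 h, an alternative added after the data were seen, these counts were 9 members still high and 34 at or below 0 h. At 7 d, 58 members in PI284702 and 69 in UC96US23 were at or below 0 h, and 11 in each cultivar had dropped at least 1 below it.

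The 10 members that were still high at 24 h included the 5 with the largest differences from 0 h at 4 h in both cultivars. Lsat_1_v5_gn_3_15861.1 had 5.83 and 6.42 CPM at 0 h in PI284702, 265, 253 and 286 CPM at 4 h, 141, 122 and 114 CPM at 24 h and 40.3, 52.7 and 45.1 CPM at 7 d. In UC96US23 its means were 13.9, 278, 112 and 45.3 CPM at these times, so that no group overlapped with 0 h in either cultivar. Lsat_1_v5_gn_8_131201.1 had means of 2.85, 80.1, 27.4 and 11.7 CPM in PI284702 and 2.86, 45.7, 20.1 and 14.5 CPM in UC96US23. Lsat_1_v5_gn_4_11221.3 was close to the detection limit at 0 h, with 0.05 and 0.29 CPM in PI284702 and 0.10 to 0.19 CPM in UC96US23, and had 13.6 to 18.7 CPM and 8.44 to 11.4 CPM at 4 h. In Lsat_1_v5_gn_5_164760.1 the times overlapped, and its PI284702 libraries had 10.4, 15.1 and 20.2 CPM at 4 h and 10.7, 5.80 and 5.50 CPM at 24 h, and its mean at 7 d was 7.18 CPM. These 4 genes ranked 68, 56, 89 and 91, since the score subtracts what is left at 24 h or 7 d.

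Among the 21 members at or below 0 h at 24 h in both cultivars, Lsat_1_v5_gn_4_124941.1 went farthest below its start in UC96US23. Its mean there was 8.69 CPM at 0 h, 26.0 CPM at 4 h, 2.14 CPM at 24 h and 1.02 CPM at 7 d, which is -1.79 and -2.60 on the log2 scale at the last 2 times. In PI284702 the means were 2.69, 7.90, 1.85 and 0.51 CPM. Lsat_1_v5_gn_2_109001.2 had 14.5, 16.9 and 18.0 CPM at 0 h in UC96US23, 48.5, 73.6 and 47.3 CPM at 4 h and 7.60, 6.88 and 6.19 CPM at 24 h, when all 3 libraries were below all 0 h libraries.

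The cultivars differed in the size of the 4 h peak by less than 1 on the log2 scale for 96 members. The rule asks for a peak in both cultivars and leaves out genes that peaked in only 1, so it favours such agreement. The difference at 4 h was larger in PI284702 for 64 members and in UC96US23 for 36, with a median of UC96US23 minus PI284702 of -0.15. It was at least 1 larger in PI284702 for 4 members and in UC96US23 for none. The widest gap in favour of PI284702 was that of Lsat_1_v5_gn_8_67381.1, at 2.42 against 1.09, and the widest in favour of UC96US23 that of Lsat_1_v5_gn_8_63761.3, at 1.11 against 2.06. Levels before the cold differed more often: 20 members were at least 1 higher at 0 h in UC96US23 on the log2 scale and 2 in PI284702. The largest of these differences was that of Lsat_1_v5_gn_3_125760.3 (4.25), with 5.52 and 16.4 CPM at 0 h in PI284702 and 98.4, 157 and 453 CPM in UC96US23. Lsat_1_v5_gn_2_42860.1 came next (3.92), with 28.6, 37.9 and 42.1 CPM in UC96US23 against the PI284702 values given above. PI284702 had only 2 libraries at 0 h. The counts of this paragraph were not made over all genes, so whether other genes differ between the cultivars in the same way was not tested.

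The AP2/ERF genes were left out by the rule, but 143 of the 224 family genes were in the cold table and 8 of them scored at or above rank 100. LsERF063 (LsCBF10) would have stood first, with a lower score of 2.05. It was at or near 0 before the cold, at 0.20 and 0 CPM in PI284702, and had 28.7, 27.9 and 42.4 CPM at 4 h. The others were LsERF009 (1.44), LsERF116 (1.18), LsERF060 or LsCBF7 (1.17), LsERF064 or LsCBF9 (1.12), LsERF062 or LsCBF11 (1.08), LsERF188 (1.03) and LsERF061 or LsCBF12 (0.96). The 5 with a CBF name encode putative regulators of the kind described above, and all 5 were still above 0 h by more than 1 at 24 h, as LsERF009 was.

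Members were found on all 9 linkage groups, most often on 5, with 16 members where 13.7% of the listed genes lie, and 3, with 15 where 9.78% lie. Linkage group 1 held 5 members where 9.82% lie, and 1 member had the prefix 0. Some members lay next to each other. Within 5 places along the order of listed genes there were 5 pairs and 1 run of 3, the latter made of Lsat_1_v5_gn_8_67360.1, Lsat_1_v5_gn_8_67381.1 and Lsat_1_v5_gn_8_67401.1 with no listed gene between them. The neighbouring genes were chosen for description after their values were seen. Whether reads were divided between near-identical copies was not tested.

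Salinas was not used to choose the members, and its libraries show how the same genes behaved in another cultivar under other stresses. Salinas was not sampled in the cold, nor PI284702 and UC96US23 under salt, heat or drought. Where cold and Salinas values are set side by side, cultivar and stress therefore cannot be told apart, and the values are scaled differently as well. The study took its own cold reads from another series, and whether the cold libraries used here belong to it is not stated. The deposited Salinas values are CPM of a scaled library size. Of the 100 members, 98 were listed there and 97 passed the filter of at least 0.5 in at least 2 of the 30 libraries, 95 of them already through the control libraries. Lsat_1_v5_gn_2_42860.1 and Lsat_1_v5_gn_2_83940.3 were not listed, and Lsat_1_v5_gn_3_110520.1, at a control mean of 0.0662, was not tested. Differences are log2 fold changes of value + 0.5 from limma, fitted on 23231 genes, and a gene rose or fell where its Benjamini-Hochberg adjusted p was 0.01 or less and the change was at least 1. A pseudocount of 0.5 understates the change of low genes. As RNA was taken from whole tissue, fewer cells of a type and less RNA per cell cannot be told apart. The 9 comparisons with control share the same 3 control libraries, so agreement between them is not independent.

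Salt moved more members than heat or drought did. At 5 h, 22 of 97 members rose (22.7%), against 4.67% of all genes tested, and 2 fell, against 1.71%. At 24 h, 47 rose, against 15.3% of all genes, and 9 fell, against 13.9%. At 48 h, 46 rose, against 21.0%, and 13 fell, against 21.7%. The median member changed by 0.34, 0.96 and 0.94 at the 3 times, and the median of all genes by -0.01, 0.00 and -0.01. With each library scaled to 1000000, the median of all genes shifted to -0.23 at 24 h and -0.51 at 48 h, with 2903 genes higher and 4375 lower at 24 h and 3399 and 7539 at 48 h, in place of 3547 and 3230, and of 4886 and 5048. The members under that scaling numbered 42 higher and 9 lower at 24 h, and 39 and 18 at 48 h. Over the 3 times, 53 members rose at 1 or more, against 22.2% of all genes, and 18 of them at all 3, against 3.81%. A further 31 rose at 24 h or 48 h but not at 5 h, against 17.5%, and 1 rose at 5 h only, against 0.547%. Another 15 fell at 1 or more times, against 22.2%, and none did both, against 0.133%.

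**Figure D3:**
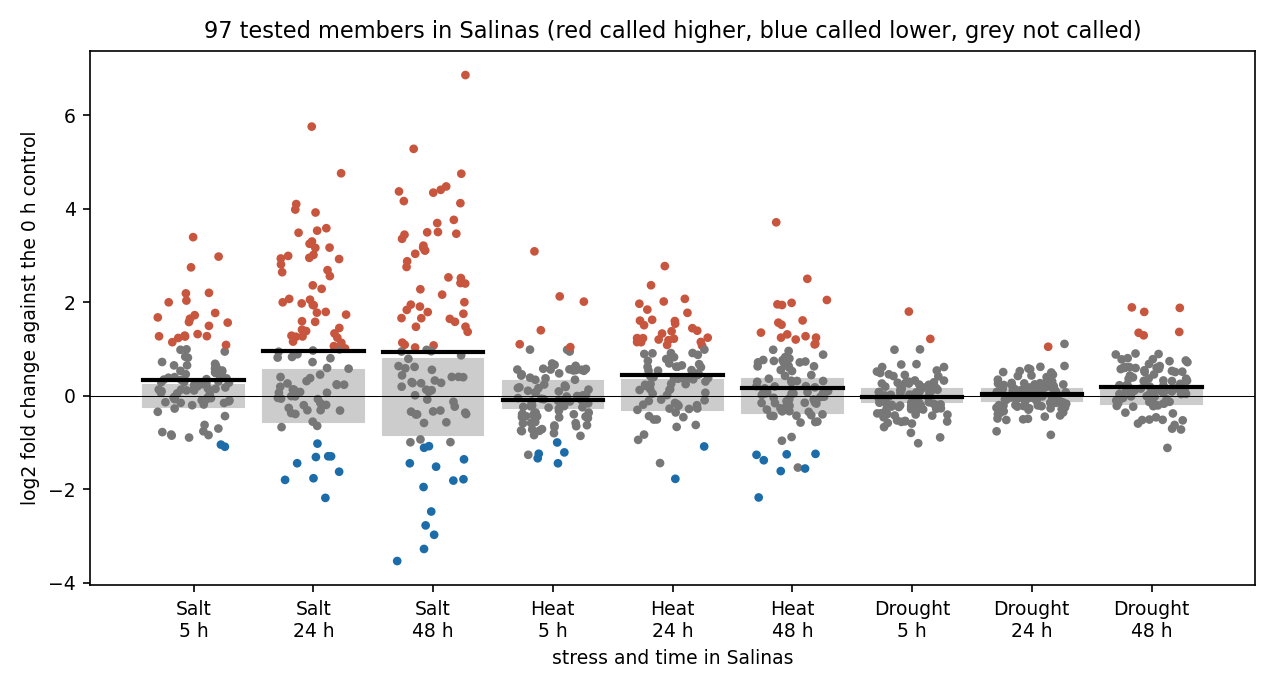
Log2 fold change against the 0 h control of the 97 tested members (points, red called higher, blue called lower, grey not called) in Salinas, by stress and time. Black lines are the members' medians and grey boxes the interquartile range of all tested genes. The member medians under salt are 0.34, 0.96 and 0.94, and under drought they stay between -0.02 and 0.19.

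The largest rise under salt was that of Lsat_1_v5_gn_6_12141.2, at rank 53. It had 0.76, 1.08 and 1.01 in the controls, 11.5, 13.02 and 5.07 at 5 h, 82.7, 165 and 33.9 at 24 h and 133, 162 and 216 at 48 h, so that no salt group overlapped with control. Its log2 fold change at 48 h was 6.86 ± 0.37 (SE, limma adjusted p = 8.13e-15). Lsat_1_v5_gn_4_165741.1, at rank 4 in the cold, had 0.99, 0.50 and 0.59 in the controls, 4.62, 3.09 and 2.20 at 5 h, 40.2, 32.4 and 23.4 at 24 h and 41.3, 48.5 and 45.8 at 48 h, a change of 5.28 ± 0.26 at 48 h (limma adjusted p = 1.84e-15). Its salt level in Salinas thus went up from 5 h to 48 h, whereas in the cold its 4 h libraries were above those of 24 h and 7 d. The cold values come from other cultivars, and only 24 h was sampled in both. Lsat_1_v5_gn_6_5540.1 had 11.9, 11.2 and 10.7 in the controls and 288, 341 and 318 at 48 h, a change of 4.75 ± 0.22 (limma adjusted p = 5.32e-16).

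The 3 largest falls under salt were those at 48 h. Lsat_1_v5_gn_2_39940.1 had 38.0, 64.0 and 55.3 in the controls, 29.3, 27.7 and 44.1 at 5 h, 29.9, 7.79 and 12.4 at 24 h and 4.35, 3.59 and 3.95 at 48 h. It did not pass at 5 h, where its libraries overlapped with control, and changed by -3.54 ± 0.29 at 48 h (limma adjusted p = 2.12e-11). Lsat_1_v5_gn_5_44481.1 had 19.5, 22.6 and 20.0 in the controls, 23.7, 21.0 and 23.4 at 5 h and 1.53, 1.79 and 1.72 at 48 h, a change of -3.28 ± 0.26. Lsat_1_v5_gn_9_90320.1 went from 53.3, 61.7 and 55.0 to 6.08, 7.73 and 6.50 at 48 h, a change of -2.98 ± 0.16. All 3 were among the members at or below 0 h at 24 h in the cold.

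Under heat, fewer members passed at 5 h than at 24 h. At 5 h, 6 rose, against 3.67% of all genes, and 5 fell, against 2.36%. At 24 h, 27 rose, against 4.86%, and 2 fell, against 5.54%. At 48 h, 17 rose, against 5.85%, and 7 fell, against 8.23%. The median member changed by -0.10, 0.44 and 0.15. In all, 29 members rose at 1 or more times, against 8.11% of all genes, 6 at all 3, against 2.00%, and 23 at 24 h or 48 h but not at 5 h, against 4.44%. A fall at 1 or more times was found for 11, against 9.36%, 1 of which also rose at another time, against 0.0646%.

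Lsat_1_v5_gn_4_124941.1, the gene that ended farthest below its start in cold UC96US23, had the largest rise under heat. It had 4.35, 7.32 and 4.18 in the controls, 25.2, 22.2 and 24.5 at 5 h, 41.5, 40.6 and 32.0 at 24 h and 75.4, 74.5 and 68.6 at 48 h, a change of 3.71 ± 0.23 at 48 h (limma adjusted p = 3.51e-12). All heat libraries were above all controls, and the level was higher at each later time. Lsat_1_v5_gn_2_108980.1 had 6.99, 7.10 and 5.90 in the controls, 60.3, 73.8 and 48.7 at 5 h, 26.1, 22.4 and 23.3 at 24 h and 39.1, 43.9 and 36.8 at 48 h, a change of 3.08 ± 0.25 at 5 h (limma adjusted p = 7.91e-10). Lsat_1_v5_gn_7_107421.1, at rank 12 in the cold, had 1.21, 1.98 and 1.39 in the controls and 8.68, 9.97 and 10.8 at 24 h, a change of 2.36 ± 0.18. It rose at all 3 times under heat and under salt, but its call at 5 h of heat was lost with a pseudocount of 2 and without replicate 1 of the control or of heat at 5 h.

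The largest fall under heat was that of Lsat_1_v5_gn_9_45021.1, from 11.1, 9.41 and 10.1 in the controls to 1.83, 1.52 and 2.28 at 48 h, a change of -2.18 ± 0.16 (limma adjusted p = 6.53e-11). It fell under salt as well, with a change of -2.48 ± 0.16 at 48 h. Lsat_1_v5_gn_2_12460.3 moved in opposite directions under the 2 stresses. It had 21.2, 18.95 and 18.1 in the controls, 6.15, 6.46 and 5.37 at 48 h of heat (-1.62 ± 0.15) and 70.5, 73.8 and 93.6 at 48 h of salt (2.00 ± 0.15). Lsat_1_v5_gn_5_103200.1 fell from 12.1, 13.4 and 12.9 to 4.57, 3.48 and 4.02 at 48 h of heat, a change of -1.56 ± 0.17, and did not pass at 5 h or 24 h.

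Drought changed the fewest members. At 5 h, 2 rose, against 0.542% of all genes, at 24 h, 1 rose, against 0.0947%, and at 48 h, 6 rose, against 1.89%. None fell by limma at any of the 3 times, where 0.237%, 0.0990% and 1.33% of all genes fell. At an unadjusted p under 0.05, 15, 7 and 9 members were lower, and edgeR called 0 at each time. The unadjusted counts were not made over all genes, so whether they exceed the share of all genes was not tested. The median member changed by -0.02, 0.04 and 0.19. The counts at 5 h and 24 h depend on single libraries, being 1 or 2 at 5 h and 0 to 2 at 24 h when each library was left out, with 0 at 24 h without replicate 3 of the control or replicate 2 of drought and 2 without replicate 2 of the control.

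The 7 members that rose under drought, against 2.36% of all genes, included the 3 neighbours on linkage group 8 and several already named. Lsat_1_v5_gn_8_67401.1 had 3.54, 2.09 and 2.15 in the controls and 8.16, 12.3 and 12.1 at 48 h, a change of 1.89 ± 0.20 (limma adjusted p = 8.53e-07). Lsat_1_v5_gn_4_124941.1 had 17.6, 24.1 and 19.1 at 48 h, a change of 1.88 ± 0.23. Lsat_1_v5_gn_2_108980.1 had 23.8, 24.4 and 24.7 at 5 h, a change of 1.80 ± 0.25, and at 24 h its libraries, at 20.3, 5.20 and 8.08, overlapped with control. The others were Lsat_1_v5_gn_7_107421.1, Lsat_1_v5_gn_5_164760.1 and the remaining pair of the linkage group 8 neighbours. With a pseudocount of 2, Lsat_1_v5_gn_7_107421.1, Lsat_1_v5_gn_5_164760.1 and Lsat_1_v5_gn_8_67381.1 did not pass under drought, nor did Lsat_1_v5_gn_5_164760.1 without replicate 3 of the control. Lsat_1_v5_gn_8_67360.1 was called at 5 h (1.21) and at 48 h (1.79) of drought, and the 48 h call held in all 14 alternatives. Its 5 h call was lost with a pseudocount of 2 and in edgeR. It was also lost without any 1 of the drought libraries at 5 h or without replicate 2 or 3 of the control.

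**Figure D4:**
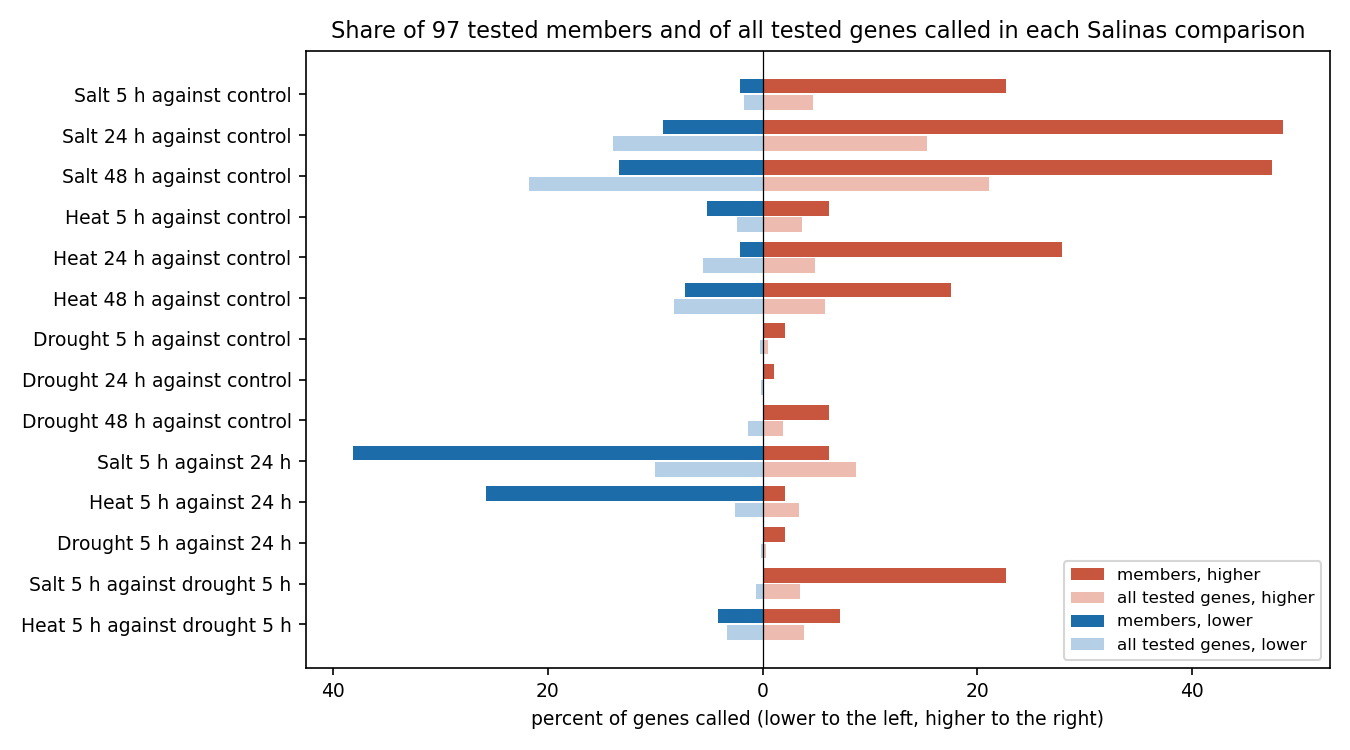
Percent of the 97 tested members (dark bars) and of all 23231 tested genes (pale bars) called higher (right, red) or lower (left, blue) in each Salinas comparison. Of the members, 22.7% rose at 5 h of salt against 4.67% of all genes, and 38.1% were lower at 5 h than at 24 h of salt against 10%.

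A peak at the earliest time, which the rule required in the cold, was uncommon among the members in Salinas. Comparisons of 5 h with 24 h do not separate time under stress from the hour of sampling. At 5 h of salt, 6 members were higher than at 24 h, against 8.70% of all genes, and 37 were lower, against 10%, with a median of -0.60. Under heat, 2 were higher, against 3.42%, and 25 lower, against 2.54%, with a median of -0.55. Under drought, 2 were higher, against 0.293%, and 0 lower by limma, against 0.112%, although edgeR called 1 lower. At an unadjusted p under 0.05, 14 members were lower, a count that was not made over all genes. With each library scaled to 1000000, the counts were 9 and 29 under salt (3126 and 1773 of all genes, in place of 2020 and 2333) and 2 and 32 under heat (648 and 806, in place of 794 and 589). By group means, 26 of the 97 members were highest at 5 h among the 3 times of salt, 19 among those of heat and 24 among those of drought, against 44.2%, 42.3% and 38.2% of all genes.

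Lsat_1_v5_gn_2_108980.1 was the 1 member called higher at 5 h than at 24 h under each stress. Under salt it had 80.1, 66.1 and 77.5 at 5 h, 22.6, 20.2 and 20.3 at 24 h and 11.6, 8.72 and 11.2 at 48 h. Its level at 5 h was above that at 24 h by 1.80 under salt, 1.31 under heat and 1.30 under drought (SE 0.25 each, limma adjusted p = 1.28e-06, 0.000261 and 0.00275). The calls under salt and heat held in all alternatives. The drought call was lost in edgeR (adjusted p = 0.0106), with only the groups compared in the fit (0.0878) and without any 1 of the 3 libraries at 5 h or replicate 2 or 3 at 24 h (0.0102 to 0.0291), where the change was 0.89 to 1.32. In the cold it had ranked 69, with 26.4 and 28.4 CPM at 0 h in PI284702, 56.1, 55.8 and 65.3 CPM at 4 h and 26.5, 8.38 and 8.84 CPM at 24 h.

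The drought group at 5 h carries the same time label as salt and heat at 5 h. Against it, 22 members were higher at 5 h of salt, where 3.46% of all genes were, and 0 were lower by limma and by edgeR, where 0.654% were. At an unadjusted p under 0.05, 12 members were lower, a count that was not made over all genes. At 5 h of heat, 7 were higher, against 3.85%, and 4 lower, against 3.31%. The medians were 0.43 for salt and 0.00 for heat.

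The members with the highest rank in the cold did not share one response in Salinas. The gene of rank 1, Lsat_1_v5_gn_8_49880.2, passed in none of the 9 comparisons with control, its changes lying between -0.53 and 0.57. Neither did Lsat_1_v5_gn_5_126341.1, the most abundant at 4 h of cold in PI284702, which had 4.26, 4.07 and 3.33 in the controls, 4.51, 5.50 and 4.53 at 5 h of salt and 1.62, 2.32 and 1.71 at 48 h of heat, a change of -0.89 that was short of the required size. In contrast Lsat_1_v5_gn_5_143260.1 at rank 2 rose by 2.03, 3.16 and 3.35 at the 3 times of salt. In all, 22 of the 97 tested members passed in none of the 9 comparisons, as did 50.3% of all genes.

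Members grouped by what they did at 24 h in the cold are described in the same way, against 4.67%, 15.3% and 21.0% of all genes that rose at 5 h, 24 h and 48 h of salt. Of the 10 still high in both cultivars, 2, 2 and 4 rose at 5 h, 24 h and 48 h of salt, and the median changes were 0.09, 0.18 and 0.08. Of 68 tested members that lay between, 15, 37 and 37 rose, with medians of 0.36, 1.14 and 1.25. Of 19 tested members at or below 0 h, 5, 8 and 5 rose, with medians of 0.34, 0.80 and 0.40. Under heat at 24 h, 5 of 10, 19 of 68 and 3 of 19 rose, against 4.86% of all genes. The difference between these groups was not tested. The groups were formed with replicate 1 of PI284702 at 24 h. Without it, 9 members were still high and 34 at or below 0 h in both cultivars, and the Salinas counts were not made for those groups.

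Some neighbouring members shared their direction under salt. The 3 genes on linkage group 8 all rose. Lsat_1_v5_gn_8_67360.1 had 3.05, 1.66 and 2.24 in the controls, 22.9, 25.7 and 16.1 at 5 h and 57.1, 47.8 and 70.5 at 48 h, a change of 4.40 at 48 h. Lsat_1_v5_gn_8_67381.1 had 1.03, 0.865 and 1.27 in the controls and 17.4, 16.5 and 25.6 at 48 h, a change of 3.69. Lsat_1_v5_gn_8_67401.1 had 60.4, 54.6 and 68.2 at 48 h, a change of 4.34. Each had all of its salt libraries above all controls at 5 h and 48 h.

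The pair on linkage group 3 went the other way. Lsat_1_v5_gn_3_16961.2 had 4.26, 4.04 and 3.84 in the controls, 2.40, 1.58 and 1.25 at 5 h of salt and 0.20, 0.25 and 0.05 at 48 h, the last of these being 1 to 4 reads a library. Lsat_1_v5_gn_3_16981.1 had 1.66, 1.08 and 2.19 in the controls and 0.05, 0 and 0.26 at 48 h, which is 0 to 5 reads. Their changes of -2.78 and -1.82 at 48 h of salt rest on a pseudocount larger than the stressed values and are smaller than the drop in reads. Under heat both rose, to means of 9.93 and 4.95 at 24 h (1.20 and 1.37) and of 16.9 and 7.61 at 48 h. With a pseudocount of 2, the calls of both at 24 h of heat and that of Lsat_1_v5_gn_3_16981.1 at 48 h of salt were lost. In the cold the same pair peaked at 4 h, with 3.52, 2.75 and 3.30 CPM and 1.84, 1.58 and 3.02 CPM in PI284702 against 0.405 and 0.365 CPM and 0.203 and 0.0729 CPM at 0 h.

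**Figure D5:**
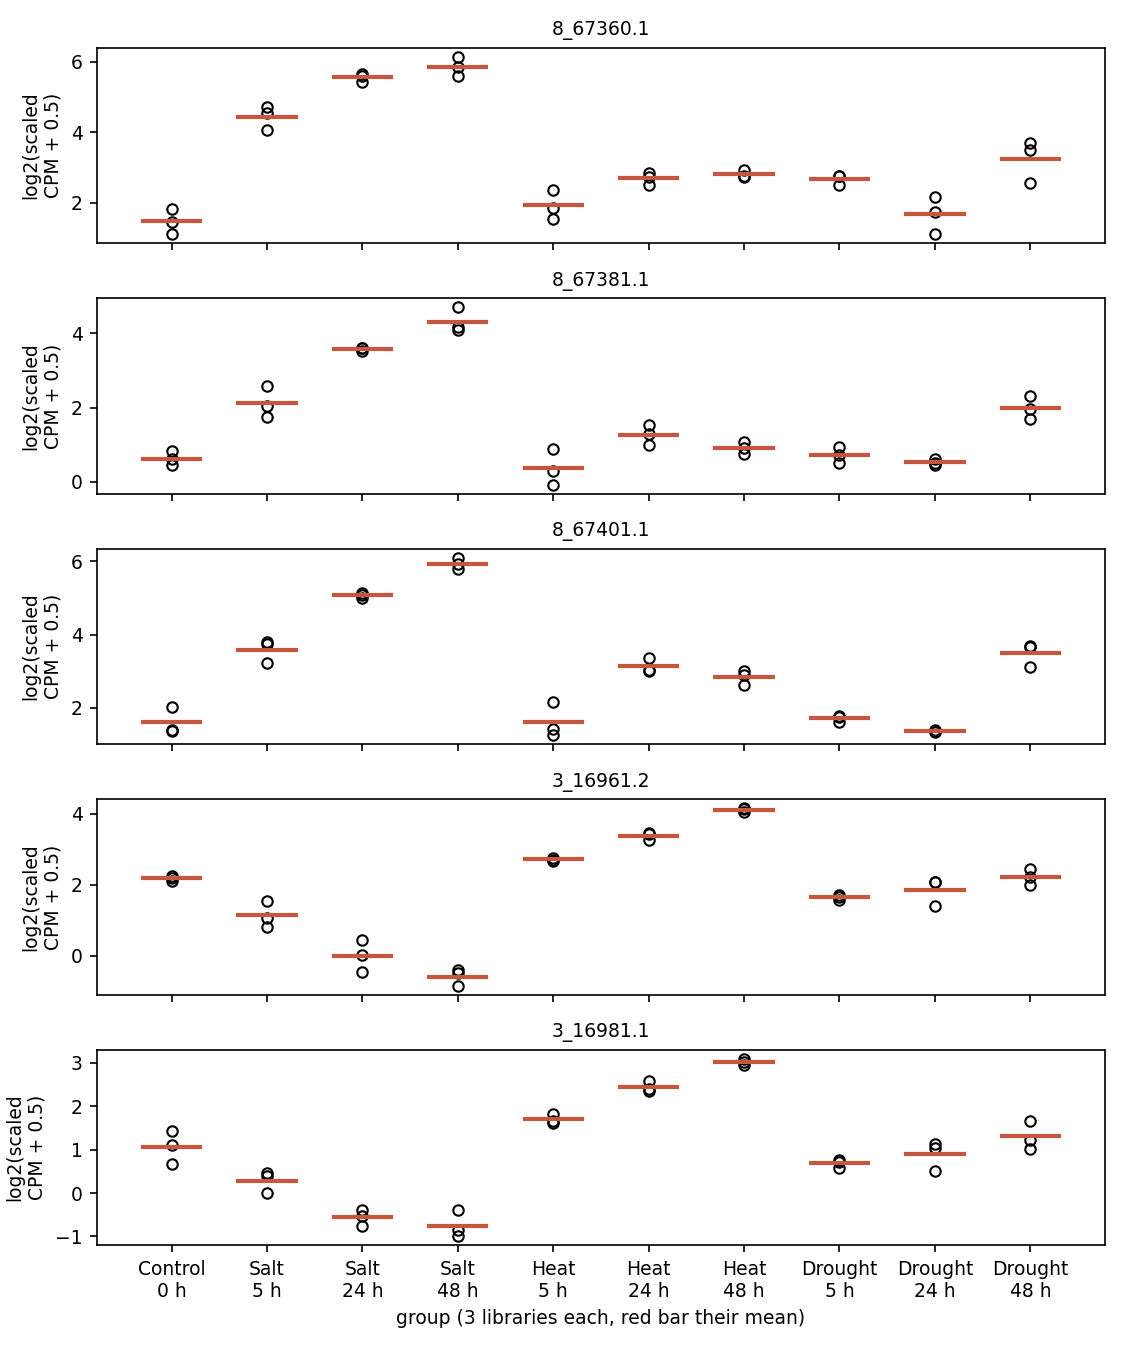
Log2(scaled CPM + 0.5) per library (circles) with the mean (red bars) of 5 members that lie next to each other, in the 10 Salinas groups. The 3 genes on linkage group 8 (top) stand highest at 48 h of salt, and the 2 on linkage group 3 (bottom) lowest there and highest at 48 h of heat.

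Not every neighbouring pair moved together. Lsat_1_v5_gn_3_67720.1 rose by 3.46 at 48 h of salt, whereas Lsat_1_v5_gn_3_67580.1 next to it changed by 0.40 and did not pass. Lsat_1_v5_gn_2_109001.2 rose by 1.28 at 24 h of salt, as Lsat_1_v5_gn_2_108980.1 did by 1.59, but changed by -0.44 at 24 h of heat, where its neighbour rose by 1.77. Lsat_1_v5_gn_4_180921.3 and Lsat_1_v5_gn_4_181061.3 both fell at 48 h of salt, with changes of -1.52 and -1.08.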

How the data were processed

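RNA-seq libraries of lettuce were analysed from the processed tables. The authors aligned the reads with STAR 2.5.2 to the lettuce genome version 8 and counted them per gene with featureCounts, whose version is not given in the sources used here. For PI284702 and UC96US23 they deposited CPM, and each library sums to 1000000. For Salinas the deposited values are a signal, CPM of a scaled library size, with library sums of 815104 to 1273640. Plain CPM had been assumed when the tests were chosen, and testing on a log scale suited both. In each table, 100% of the values above 0 were whole multiples of 1 read (tolerance 0.05), which gave the reads per library. Floors of 3 reads and depths cover counting error only.

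The members were ranked in Python 3.11.15 with pandas 2.3.3. Salinas genes were kept where 2 or more libraries reached 0.5, and were fitted with limma 3.58.1 in R 4.3.3 (trend, log2 of value + 0.5, all 30 libraries), with 9 comparisons against control, 3 of 5 h against 24 h and 2 between stresses at 5 h. Adjustment was over all 23231 genes within a comparison. Fits were tested on simulated data. p-values rest on a spread between libraries that limma estimated per gene over all 10 groups and moderated across genes. They therefore do not measure the spread of the compared groups alone. The study's methods call the 3 libraries of a Salinas group biological replicates, and do not say this of the cold libraries. The replicates of a group differed by more than counting noise (chi-square per gene 3.57 or more).

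Set for naming were the 20 members of highest rank, of which only some are described here. Also named were those at the limit of the list and the AP2/ERF genes left out. So were the 3 largest rises and falls under each stress among those called with no overlap with control. Any other was chosen after its values were seen. Members and lists were chosen with earlier results of these data known. Alternatives were pseudocounts of 0.1 and 2, no filter, median-centring, scaling to 1000000, only the groups compared, a replicate block, edgeR 4.0.16 on the recovered reads, only members with a mean of at least 1 CPM over the cold libraries, and leaving out each library. Of 100 members, 0 matched the RefSeq gene table, so function lists, leaf markers, promoter motifs and sequences were not used here.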

Additional observations from a re-analysis of the deposited data

Results flagged for a closer look

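Some members differed between 5 h and 24 h of a stress by a gene-by-gene test of the difference itself. In that test, time under stress and the hour of sampling cannot be told apart. Under salt, 6 of 97 members were higher at 5 h than at 24 h, against 8.70% of all genes, and 37 were lower, against 10%. Under heat, 2 were higher, against 3.42%, and 25 lower, against 2.54%. Under drought, 2 were higher, against 0.293%, a count that was 0 without any of the 3 drought libraries at 5 h or without replicate 2 or 3 at 24 h.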

How the results depend on the processing

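Of the 100 members, 85 stayed with a pseudocount of 0.1, 86 with 2, 100 with the filter, 97 with median-centring and 92 to 100 when 1 library was left out. Without replicate 1 of PI284702 at 24 h, members at or below 0 h at 24 h in both cultivars numbered 34 in place of 21. The largest rises and falls under each stress (15 changes, 210 alternative values) kept their direction and their call. Other changes did not all do so, and only for some of the named members are the lost calls given beside them.

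A pseudocount of 2 gave 1 member lower at 5 h and 5 at 24 h of salt, 3 lower at 5 h and 1 at 24 h of heat, 1, 0 and 3 higher at 5 h, 24 h and 48 h of drought, and 3 higher and 2 lower at 5 h of heat against drought. A pseudocount of 0.1 gave 12 higher in that comparison and 1 lower at 5 h against 24 h of drought. Median-centring gave 1 lower at 5 h and at 48 h of drought and at 5 h against 24 h of drought, and scaling to 1000000 gave 1 lower in the first and last of these. With only the groups compared in the fit, 1 member was lower at 5 h of drought, 0 higher at 24 h of drought, 3 higher at 5 h against 24 h of salt and 0 at 5 h against 24 h of drought. edgeR gave 0 higher and 1 lower at 5 h against 24 h of drought, and 11 higher at 5 h of heat against drought. The cause was not tested. Scaling to 1000000 moved the salt medians to 0.74 at 24 h, 0.40 at 48 h and -0.36 at 5 h against 24 h, and a pseudocount of 2 moved the 24 h median to 0.75.

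With single libraries left out, the counts lower were 1 to 3 at 5 h of salt (1 without its replicate 2 or 3), 3 to 6 at 5 h of heat (3 without its replicate 2), 1 to 2 at 24 h of heat (1 without its replicate 3), 0 to 1 at 48 h of drought (1 without its replicate 3), 0 to 1 at 5 h against 24 h of drought (1 without replicate 1 at 24 h) and 0 to 1 at 5 h of salt against drought (1 without salt replicate 1 or drought replicate 1 or 3). The counts higher were 1 to 2 at 5 h of drought (2 only with every drought library and control replicates 2 and 3), 0 to 2 at 24 h of drought and 0 to 4 at 5 h against 24 h of drought (4 without replicate 1 at 24 h). The replicate numbers did not pair the samples: the correlations of 42 same-numbered pairs lay between -0.28 and 0.14. With the replicate number as a block the counts were the same, such as 22 higher and 2 lower at 5 h of salt and 47 and 9 at 24 h. The members with few reads limit what can be said of their falls.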
